A study of Drosophila melanogaster with 2 samples.

Results

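Of 3601 reproducible Stat92E peaks on the chromosome arms of the fly genome, 314 (8.72%) carried the canonical STAT palindrome TTCNNNGAA, in which the half-sites TTC and GAA stand 3 bases apart, in a window that reached 50 bp to either side of the peak summit. Reproducible peaks are those the authors kept by IDR, the irreproducible discovery rate. Among them the 314 were selected by sequence and summit position alone, so neither signal nor the replicate lists entered this choice. The pattern reads the same on both strands, and the summit windows held 326 distinct sites: 303 peaks had 1 site, 10 peaks had 2 and 1 peak had 3. In the same peaks the site was present in 3.08% of windows 1000 bp to the left of the summit and in 3.33% of windows 1000 bp to the right, and the summit share was 2.72 times the mean of both. The study was a ChIP-seq experiment on whole embryos of Drosophila melanogaster aged 0 to 12 h, of both sexes pooled, from flies that stably expressed Stat92E fused to eGFP at its C terminus. It had 1 group with 2 biological replicates, which the labels number 1 and 3, a control shared by both, and chromatin sonicated to 200 to 800 bp. The precipitation was described as made with an antibody against GFP, whereas the antibody field of the labels names Stat92E. Because whole embryos were used, the tissue in which a region was bound cannot be told, and read depth is unknown since peak lists hold no read counts.

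Stat92E is the only STAT protein of the fly and the transcription factor at the end of the JAK/STAT pathway. Secreted Unpaired ligands bind the receptor Domeless, the kinase Hopscotch phosphorylates Stat92E, and Stat92E dimers then bind palindromes of TTC and GAA in DNA. In the embryo the pathway is known for its parts in segmentation, in the tracheae and posterior spiracles, and in the hindgut, and it induces its own inhibitor Socs36E. Fly STAT is also known to bind half-sites 4 bases apart, and 219 peaks that held only that longer spacing served as a second comparison beside the 3068 peaks with neither spacing. Each peak is called by the coding gene whose start site was closest to its summit, and this gives a neighbour, not a gene shown to be regulated.

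The 3 bases between the half-sites varied among the bound sites, and each site was sorted by whether its half-sites extended inward to TTCC and GGAA. Both extended, which gives TTCCNGGAA, in 45 sites (13.8% of 326), 1 extended in 169 sites (51.8%), and neither extended in 112 sites (34.4%). The sequences below are from RefSeq (Release 6, the dm6 assembly), on the forward strand and 29 bases long, with the site in capitals. The first set shows strong peaks whose site had both half-sites extended, as the shared centre among otherwise different neighbouring bases.
dome (chrX:19683236-19683264): atacgctgcgTTCCTGGAAgtggctctta
Stat92E (chr3R:20550398-20550426): tttatgggctTTCCAGGAAacaacaatga
Reg-2 (chr3L:622643-622671): caagtcaaaaTTCCAGGAAtttaggattg
RhoU (chrX:10115764-10115792): attttttcaaTTCCTGGAAtttaatcaag
melt (chr3L:7137893-7137921): ctgtcccgatTTCCAGGAAgcaaatgtct
cv-c (chr3R:14482307-14482335): aatagcccgaTTCCTGGAAgtcgacttaa
grn (chr3R:8160724-8160752): gagtttctggTTCCCGGAAtcgtattatg

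The next set shows strong peaks with 1 extended half-site, on either side of the centre, and is printed because this was the most frequent class at summits.
Rac2 (chr3L:7435522-7435550): ttcgacggttTTCCACGAAtttcccgacc
dos (chr3L:2590744-2590772): gatacgacagTTCCAAGAAcacccaaacc
FER (chr3R:9378941-9378969): tggtccacgaTTCTCGGAAttaaaggaac
Rab8 (chr3L:19861416-19861444): attttccaagTTCTTGGAAcatgcggtcg
tnc (chr3R:25002472-25002500): gcattcagaaTTCTTGGAAttttcattaa
Dtg (chr3R:12649575-12649603): aattccgattTTCCACGAAacgagttgca
MYPT-75D (chr3L:18630040-18630068): aggtggacaaTTCTCGGAAccctccaccg

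The last set shows strong peaks with no extended half-site. They are printed because several of the strongest peaks of all, among them that of the feedback inhibitor Socs36E, had a core of this class.
Lk6 (chr3R:11761044-11761072): ctaaacgtatTTCACTGAAcagcctaatg
CG5953 (chr2L:16526248-16526276): cactgcgcatTTCTAAGAAaaatttatgc
Socs36E (chr2L:18151706-18151734): tgtctgtcacTTCTCAGAAatcggtctaa

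Sites with extended half-sites made up a larger share at summits than elsewhere. Among 2752 sites lying 500 to 2000 bp from the summits of reproducible peaks, both half-sites were extended in 5.38%, 1 in 34.2% and neither in 60.4%. Counted over the arms, 326 of 42765 sites (0.762%) lay in a summit window. That share was 1.82% for sites with both half-sites extended (95% interval 1.33% to 2.43%), 1.22% with 1 extended (1.05% to 1.42%) and 0.423% with neither (0.349% to 0.509%). The interval for neither lay apart from the other intervals, which overlapped each other. All intervals here are exact Clopper-Pearson intervals at 95% and cover counting error only, not the spread between embryos.

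The 32 possible cores, with each core pooled with its reverse complement, spread further than the extended half-sites alone. TTCCGAGAA, which reads TTCTCGGAA on the other strand, lay in a summit window in 31 of its 1030 occurrences on the arms (3.01%, interval 2.05% to 4.25%). TTCCACGAA followed with 25 of 1091 (2.29%), TTCCAAGAA with 40 of 1855 (2.16%) and the palindrome TTCCAGGAA with 33 of 1600 (2.06%). For these 4 cores the interval lay above the share of all sites. For 10 of the 32 cores it lay below, among them TTCAAAGAA with 9 of 3025 (0.298%) and TTCAATGAA with 8 of 3006 (0.266%), which were the most frequent cores on the arms. TTCCGCGAA was at summits in 2 of 640 occurrences (0.313%, interval 0.0379% to 1.12%), and TTCAGAGAA in 1 of 1277 (0.0783%). The 8 cores with the highest shares together supplied 184 summit sites (56.4%), against 23.4% of all sites on the arms. Because these 8 were picked by that share, the direction of this contrast was fixed by the choice. With only 1 to 40 summit sites in a core, the order of neighbouring cores was within counting error.

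Another grouping, made after these counts were seen, sorts all cores by their ends. Sites with a pyrimidine after TTC and a purine before GAA made up 176 of the 326 summit sites (54.0%), against 24.6% of the sites 500 to 2000 bp away. Of all such sites on the arms, 1.62% lay in a summit window, compared with 0.552% where only 1 end matched and 0.334% where neither did. The middle base of the core showed no such difference: A or T stood there in 59.8% of summit sites and in 58.0% of the sites farther away. Single cores departed from the grouping by ends. TTCCACGAA, at 2.29% among the 4 leading cores, matched at only 1 end, while TTCTCAGAA matched at both with 0.869%. Bases just outside the palindrome also differed in composition. Reading outward from both half-sites, the adjacent base was A or T in 73.2% of 652 positions at summits, against 62.1% of 5504 positions at the sites farther away. The next base was C in 11% at summits and 17.2% farther away, and at the sixth base out A and T together made up 58.6% and 58.3%.

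**Figure D1:**
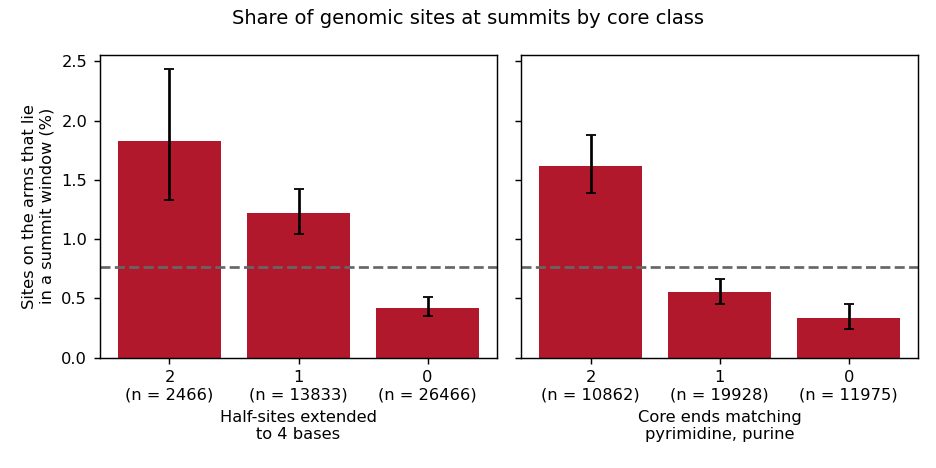
The y axis of both panels gives the percentage of all 3-base-spacer sites on the arms that lay in a summit window, by the number of half-sites extended to TTCC or GGAA (left) and by the number of core ends that were a pyrimidine or purine as described (right). Bars start at 0, error bars are exact 95% binomial intervals, n is the number of sites on the arms, and the dashed line marks the share of all sites, 0.762%; the bars are higher where more features match, and on the left the intervals for both and for 1 overlap.

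Windows with more than 1 site are shown whole, as examples of how paired sites were spaced. Brd, the gene of Bearded, an inhibitor of the ubiquitin ligase Neuralized of the Notch pathway, was the nearest gene of the only window with 3 sites. In E2f1, which encodes a cell cycle transcription factor, the pair of sites abutted without a base between them. The pairs near mRpL13 and Dyro each stood 21 bp apart from start to start.
Brd (chr3L:14973252-14973352): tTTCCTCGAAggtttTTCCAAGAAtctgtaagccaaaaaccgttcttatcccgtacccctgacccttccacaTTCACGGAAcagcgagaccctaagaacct
E2f1 (chr3R:21641881-21641981): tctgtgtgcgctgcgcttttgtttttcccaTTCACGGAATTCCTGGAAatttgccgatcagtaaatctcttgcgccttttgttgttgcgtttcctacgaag
mRpL13 (chr2L:18870025-18870125): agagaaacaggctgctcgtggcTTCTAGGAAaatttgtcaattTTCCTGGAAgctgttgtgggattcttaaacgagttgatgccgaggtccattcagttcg
Dyro (chr3L:11285810-11285910): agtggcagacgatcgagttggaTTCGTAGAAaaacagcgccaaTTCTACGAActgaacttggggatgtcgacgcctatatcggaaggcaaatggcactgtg

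Among the 12 pairs of neighbouring sites, distances from start to start ran between 9 bp in E2f1 and 57 bp in Brd, and dome had a pair 26 bp apart and squ one 37 bp apart. The 11 peaks with 2 or more sites had a median pooled signal of 264, against 192 for the 303 peaks with 1 site, and they ranged between 121 and 973. A further site between the edge of the window and 250 bp from the summit was found in 14.6% of the 314 peaks (10.9% to 19.1%). A site in that stretch was found in 16.2% of the other 3287 peaks (15.0% to 17.6%), which by the rule have none in the window. Sites there were about as frequent in both, but only in the 314 were they additional to a site in the window. The 4-base spacing was present in the same window in 25 of the 314 peaks (7.96%, interval 5.22% to 11.5%), compared with 6.66% of the other peaks and 6.78% of all reproducible peaks. Within each location the order was reversed, with overlapping intervals. The share was 4% against 4.52% of the other peaks at promoters, and 10.6% against 11.2% away from them. These 25 peaks, led by dos and CG4218, had a median pooled signal of 229, and the 289 without the longer spacing one of 192. Their signals overlapped, from 121 to 581 with the longer spacing and from 121 to 973 without it.

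The density of 3-base-spacer sites was highest around the pooled summits, the measure by which the window chose the peaks. In 20 bp bins the density of sites was 1.12 per kb at 20 bp left of the pooled summit and 1.06 per kb at the summit itself, against a median of 0.278 per kb in bins 300 to 600 bp away (0.208 to 0.430). In peaks away from promoters it reached 2.13 per kb, and in promoter peaks 0.636 per kb. The median distance from the summit to the centre of the nearest site was 23 bp, and 148 of 314 peaks (47.1%) had it within 20 bp, where sites spread evenly over the window would give 44.1%. The interval of the first value, 41.5% to 52.8%, includes the second. Within 40 bp the share was 91.1% (interval 87.4% to 94.0%), where an even spread would give 87.1%, just outside the interval. Cuts at 5, 10 and 30 bp also gave shares above the even value, with intervals that include it. Any concentration inside the window was therefore slight, and taking the nearest of several sites favours short distances. The replicate summits, called by the authors on each replicate alone, were not used by the rule, although they come from the same libraries as the pooled summits. Each was also taken from the overlapping replicate peak with the summit nearest the pooled summit, around which the rule requires the site. Short distances between replicate summits and sites were thus favoured in advance, and they are given as description only. In replicate 1 the median distance was 22 bp and 251 of 313 peaks had the site centre within 46 bp, the farthest the window allows; in replicate 3 it was 26 bp with 243 of 313. The summits of the replicates lay a median of 33 bp apart in the 3-base-spacer peaks, 29 bp in the peaks with only the 4-base spacing and 42 bp in peaks with neither. Among peaks of rank 720 or better the same medians were 26, 19 and 31 bp, and in the rest 37, 33 and 45 bp, so the order held in strong and in weak peaks. By location it held only in part: the medians were 35, 38 and 43 bp at promoters and 32, 24 and 39 bp away from them. Peaks with neither spacing had the largest median in each of these divisions.

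**Figure D2:**
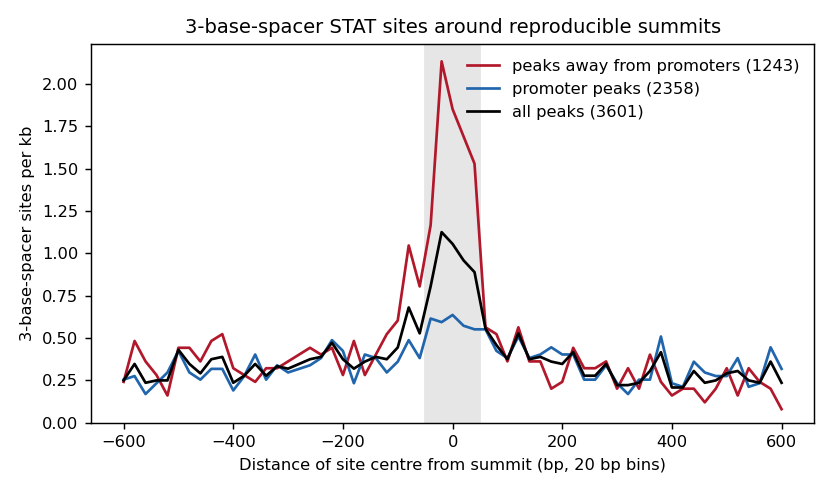
Density of 3-base-spacer sites (sites per kb, y axis) by distance of the site centre from the pooled summit (bp, x axis, 20 bp bins) for all 3601 peaks, 2358 promoter peaks and 1243 peaks away from promoters; the grey band is the window that selected the peaks. The line for peaks away from promoters reaches 2.13 per kb in the band and the line for promoter peaks 0.636 per kb, while the medians of both in bins 300 to 600 bp away are 0.282 and 0.276 per kb, with single bins between 0.0805 and 0.523 per kb away from promoters and between 0.170 and 0.509 per kb at promoters.

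Peaks with the 3-base-spacer site had higher signal than the other peaks. Signal is the value of the authors' peak caller, on a scale that is not stated. The pooled median was 193 (quartiles 147 and 261) in the 314 peaks, 161 in peaks with only the 4-base spacing and 158 (quartiles 136 and 198) in peaks with neither. The 3-base-spacer peaks also had the highest median in each replicate list. In replicate 1 the medians were 111 with the 3-base-spacer site, 93.6 with only the 4-base spacing and 94.3 with neither, and in replicate 3 they were 86.0, 76.0 and 71.1. In promoter peaks the pooled medians were 192, 161 and 156, and away from promoters 194, 162 and 161, so the difference was of like size in both locations. The groups overlapped over nearly the whole range, and the strongest peak of all, at 1085, held neither site.

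By rank, 125 of the 314 peaks (39.8%, interval 34.4% to 45.5%) had rank 720 or better, as had 19.9% of all reproducible peaks. The share was 20.5% in peaks with only the 4-base spacing and 17.9% in peaks with neither. Among the best 100 ranks there were 26 of the 314 (8.28%), compared with 1.83% with only the 4-base spacing, 2.22% with neither and 2.72% of all reproducible peaks. Read in the other direction, the site was present in 26.5% of pooled peaks of rank 1 to 100 on the arms, 19.5% of the next 200 peaks, 12.7% of ranks 301 to 1000 and 6.15% of ranks 1001 to 3603. The decline was repeated in each replicate's own list, with 26.5% and 26.0% in ranks 1 to 100 of replicates 1 and 3, and 6.57% and 6.30% in ranks 1001 to 3603. Ranks 3604 to 6000 of the pooled list, outside the reproducible set, still had 6.17%, and ranks 20001 to 30000 had 3.34% against 2.82% in their own flanking windows.

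**Figure D3:**
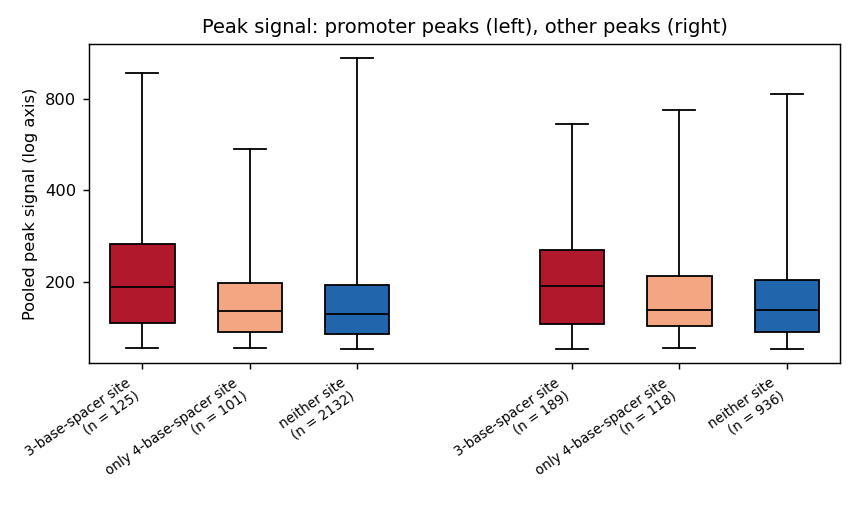
Pooled peak signal (log axis, scale of the authors' caller) for promoter peaks on the left and other peaks on the right, each with the 3-base-spacer site, only the 4-base spacing and neither. Boxes are quartiles with the median and whiskers reach the lowest and highest peak; the medians with the 3-base-spacer site, 192 and 194, are the highest on each side, and all boxes overlap.

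**Figure D4:**
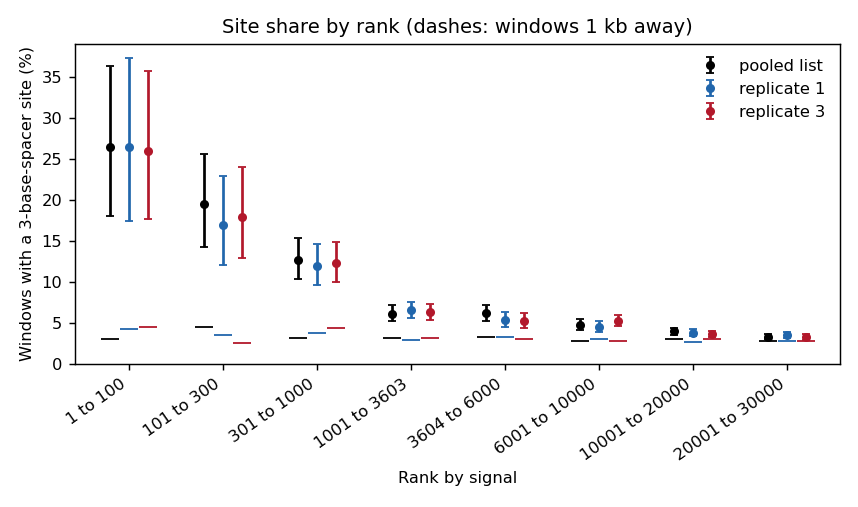
Percentage of summit windows with a 3-base-spacer site (y axis) by rank in the pooled list and in each replicate's list (x axis), with exact 95% binomial intervals. Dashes give the share in windows 1 kb to either side; all 3 lists fall from about 26% at ranks 1 to 100 toward the level of the dashes in the lowest ranks.

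Signal also differed by core class within the 314 peaks. Each peak was classed by its site with most extended half-sites. The median pooled signal was 213 in the 45 peaks with both half-sites extended, 205 in the 163 with 1 and 174 in the 106 with neither. Rank 720 or better was held by 46.7% of the peaks with both extended (31.7% to 62.1%), 46.6% of those with 1 (38.8% to 54.6%) and 26.4% of those with neither (18.3% to 35.9%). The classes differed in location too, since 26.7% of the peaks with both extended were at promoters, 34.4% of those with 1 and 53.8% of those with neither. Within promoters the medians were 260, 217 and 176, and away from promoters 208, 204 and 171, so peaks with no extended half-site had the lowest median in each location. Signal ranges overlapped among all classes, and the peaks with no extended half-site included Lk6 at 692, CG5953 at 659 and Socs36E at 655.

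The replicates were compared at the same peaks. Of the 314 peaks, 239 (76.1%, interval 71.0% to 80.7%) overlapped one of the 3603 strongest peaks in both replicate lists, against 66.7% with only the 4-base spacing, 65.0% with neither and 66.1% of all reproducible peaks. By strength the shares lay closer together: 100%, 97.8% and 98.5% at rank 720 or better, and 60.3%, 58.6% and 57.7% in the remaining peaks. All but 1 of the 314 peaks had a peak in both full lists, as had 99.0% of all reproducible peaks. Spearman's rho between the signals of the replicates was 0.706 over 313 peaks with the site, 0.341 over 218 with only the 4-base spacing and 0.337 over 3033 with neither. At rank 720 or better rho was 0.665 over 125 peaks with the site, 0.321 over 45 and 0.464 over 543. In the remaining peaks it was 0.103 over 188, -0.05 over 173 and -0.05 over 2490. These remaining peaks were cut by pooled signal, which comes from the same 2 replicates, to the band from 121 to 216. Such a cut can by itself lower rho, so agreement among weaker peaks cannot be judged from it. These values are descriptions across peaks, which share their 2 libraries and were kept by pooled signal, and the groups were not matched for signal range.

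Matched to the overlapping replicate peak with the nearest summit, single peaks diverged widely between the replicates, some of them strong in the pooled list. The peak near ed, of pooled rank 262, had a signal of 60.6 in replicate 1 (rank 5398) and 166 in replicate 3 (rank 153). That near sala, of pooled rank 663, had 154 in replicate 1 (rank 428) and 46.2 in replicate 3 (rank 5383). The largest differences of rank were in weaker peaks. CG42713 had a signal of 120 in replicate 1 (rank 959) and 27.0 in replicate 3 (rank 13414). Near comm, a regulator of axon crossing at the midline, it was 72.9 in replicate 1 and 23.9 in replicate 3. The peaks at Atox1, jing and dnt had 108, 65.3 and 104 in replicate 1, and 28.4, 25.5 and 30.2 in replicate 3. In the other direction, the peak at Unc-115a had 42.1 in replicate 1 (rank 9768) and 89.6 in replicate 3 (rank 1003), and a peak near CG15283 had 47.2 and 110 in replicates 1 and 3. Those at psq, Cyp310a1 and 14-3-3zeta had 44.8, 49.2 and 48.5 in replicate 1, and 76.2, 92.4 and 83.3 in replicate 3. These 10 peaks ranked between 1367 and 3410 in the pooled list.

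**Figure D5:**
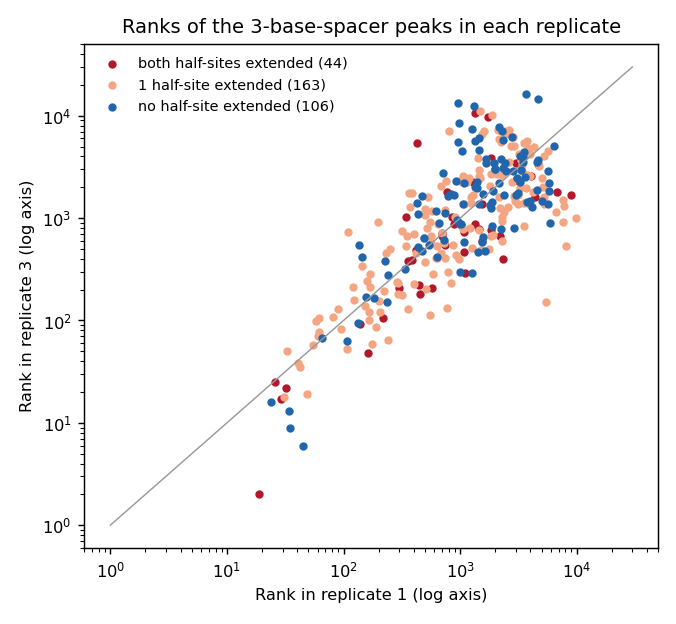
Rank of each 3-base-spacer peak in replicate 1 (x axis) and replicate 3 (y axis), both on log axes with rank 1 the strongest, coloured by the number of extended half-sites; the line marks equal ranks. Ranks are those of the overlapping replicate peak with the nearest summit. The 26 peaks of pooled rank 100 or better reach at most rank 174 in replicate 1 and 128 in replicate 3, while farther down single peaks lie far from the line, among them ed at 5398 and 153 and CG42713 at 959 and 13414. At ed a stronger replicate 1 peak with a more distant summit overlapped too.

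Peaks with either STAT spacing were found away from promoters more often than peaks with neither. Summits within 1000 bp of a protein-coding start site made up 125 of the 314 (39.8%, interval 34.4% to 45.5%), against 46.1% of peaks with only the 4-base spacing, 69.5% of peaks with neither and 65.5% of all reproducible peaks. Introns held 113 (36.0%), against 30.1% with only the 4-base spacing and 18.5% with neither, and intergenic sequence held 73 (23.2%), against 22.8% and 11.2%. The intervals of the 3-base-spacer peaks and of the peaks with only the 4-base spacing overlapped in each of these classes. Only 3 lay in exons. Seen by location, the site was present in 5.30% of promoter peaks (4.43% to 6.28%) and in 2.99% of their flanking windows, a ratio of 1.77. In introns it was present in 15.1% of peaks, 3.83 times the flanking share, and in intergenic peaks in 15.7%, 5.21 times. The sites themselves lay in introns in 153 cases, between genes in 108, in untranslated exon sequence in 64 and in coding sequence in 1. The 189 peaks away from promoters stood a median of 4982 bp from the nearest start site, and 42 were farther than 10000 bp, with the most distant, CG12362, at 57169 bp.

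At promoters, the summit was upstream of the start site in 59 of 125 peaks with the site (47.2%, 38.2% to 56.3%) and in 62.0% of 2233 other promoter peaks (59.9% to 64.0%). The median offset was 9 bp downstream with the site and 35 bp upstream (-35) in the others. By arm, the site was present in 10.2% of peaks on 2L, 9.50% on 2R, 9.09% on 3L, 7.45% on 3R and 6.59% on X. On chromosome 4 it was present in 3 of 21 peaks, too few to place. The intervals of these shares overlapped. The mean GC content of the windows was 42.7% with the site, 41.1% with only the 4-base spacing and 39.1% with neither. Away from promoters it was 43.1%, 40.7% and 37.0%. The part of base composition in the differences between these groups was not tested.

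Another 14 motifs were searched in the same windows on both strands. The GATA motif AGATAAG, bound by factors such as Serpent, Pannier and Grain, was in 12 of 314 windows (3.82%, 1.99% to 6.58%) and in 1.16% of the 3287 other windows (0.819% to 1.58%). At promoters the shares were 4% and 0.806%, and elsewhere 3.70% and 1.90% with overlapping intervals. The Caudal motif TTTATGG was in 4.14% (2.22% to 6.98%) and 1.95% (1.50% to 2.48%). The TEAD motif GGAATG, the site of Scalloped, can overlap the end of a STAT site. It was in 6.69% of the windows in all and in 4.78% clear of the site, against 3.35% of the other windows.

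Other motifs had lower or like shares. The homeodomain core TAATTA was in 3.18% of windows with the STAT site (1.54% to 5.78%) and in 6.54% of the others (5.72% to 7.44%). The promoter element DRE, TATCGATA, was in 0.955% and 3.07%, and within promoter peaks in 1.60% and 4.39%. The repeat GAGAGAG was in 1.59% and 3.26%. The Zelda motif CAGGTAG, with 0.637% and 0.548%, AP-1, TGANTCA, with 2.87% and 2.40%, and the E-box CAGCTG, with 5.73% and 5.35%, stood at about the same share in both. The E-box CACGTG had 0.955% and 1.67%, CAGGTG 2.23% and 2.77%, the Runx motif AACCGCA 1.91% and 0.852%, and the Ets motif CCGGAAG 0.318% and 0.365%. The half-sites in reversed order, GAANNNTTC, were in 7.96% and 3.10%, but clear of the STAT site in 3.18%. With 1 to 25 windows per motif, only large differences can be seen. The intervals overlapped for all 14 except GATA and, where matches that overlap the STAT site were counted, TEAD and the reversed half-sites.

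Genes of the pathway itself carried several of the peaks. Of 13 components, 8 had a reproducible peak assigned, with 16 peaks in all, 8 of them at promoters. Of these 16 peaks 7 (43.8%, interval 19.8% to 70.1%) held the site, compared with 8.72% of all peaks. They belonged to the receptor dome, the transcription factor Stat92E, and the negative regulators Socs36E, Ptp61F and Su(var)2-10. The peak at dome had rank 4 among all reproducible peaks, with a pooled signal of 973 and 532 and 445 in replicates 1 and 3. It held a pair of sites, TTCTCGGAA and the fully extended TTCCTGGAA printed above, and its summit lay 272 bp downstream of the start site. Both sites were among the 4 cores with the highest shares at summits.

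The Stat92E gene had its peak 729 bp inside its transcription start, with 642 in the pooled list and 357 and 293 in replicates 1 and 3. Its extended palindrome lay 34 bp from the pooled summit and 7 and 81 bp from the summits of replicates 1 and 3. Socs36E, the suppressor of cytokine signalling that dampens the receptor complex, had 3 peaks with the site, of 6 in all. The strongest, 713 bp inside the gene, had 655 in the pooled list and 335 and 310 in replicates 1 and 3. The others, in introns 3412 and 4531 bp from the start, had pooled signals of 255 and 196, and the weaker of them carried the extended palindrome, as its sequence shows.
Socs36E (chr2L:18147884-18147912): ggcggaaaaaTTCCTGGAAaatatgcaca
The Socs36E peak of highest signal had the core without extension, so core class and signal did not run in parallel within this gene.

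Ptp61F, a tyrosine phosphatase that acts on the pathway, had a peak 90 bp inside the gene with 238 in the pooled list and 148 and 103 in replicates 1 and 3. Su(var)2-10, the PIAS protein that restrains STAT, had the weakest of the 7, with 128 in the pooled list and 88.9 and 39.9 in replicates 1 and 3.

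Among 31 genes described elsewhere as pathway targets, 12 of 70 peaks (17.1%, interval 9.18% to 28.0%) held the site, and they lay at 8 genes, among them dome, Stat92E and Socs36E of the list above. Of the 70 peaks 23 were at promoters. Over all reproducible peaks the site was in 5.30% at promoters and in 15.2% away from them, and the lists were not matched for location. Diap1, an inhibitor of apoptosis, had a pair of peaks with the site. The stronger had 322 in the pooled list and 172 and 159 in replicates 1 and 3, and the weaker had 188, with 90.0 and 102. The weaker one carried the palindrome TTCCCGGAA in its other-strand form.
Diap1 (chr3L:16044268-16044296): gcatcgaaaaTTCCGGGAAttccgaattg
The RhoGAP gene cv-c, needed for spiracle invagination, had a promoter peak at 315 with 153 and 159 in replicates 1 and 3. The POU factor gene vvl had a pair of intergenic peaks 30304 and 39523 bp from its start, at 269 and 271. ImpL2, a secreted binder of insulin-like peptides, had 236, and eya, a transcriptional cofactor and phosphatase, had 186. At each of these 5 genes both replicates listed the peak, as they did for 99.0% of all reproducible peaks.

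In the list of tracheal and spiracle genes, of whose 31 peaks 12 were at promoters, 8 peaks (25.8%, 11.9% to 44.6%) held the site. Besides cv-c and vvl they belonged to grn, a GATA factor of the spiracle, at 291, to tgo, the partner of Trachealess, at 232, and to en, salm and ems at 150, 140 and 123. Of 21 genes of EGFR and FGF signalling, 4 had such peaks (5 of 41 peaks, 12.2%, interval 4.08% to 26.2%). The receptor Egfr had a pair, at 337 and 293. The Ets repressor aop had 318, the FGF ligand ths 263 and the secreted antagonist aos 202. The kinase list had 4 of 20 peaks (20%, interval 5.73% to 43.7%), among them Lk6, a kinase of the translation factor eIF4E, and Btk, a Tec family kinase with a pair. In the cytoskeleton and adhesion list there were 4 of 24 (16.7%, interval 4.74% to 37.4%), at the small GTPase genes Rac2, RhoU and RhoL and at the polarity gene baz. The intervals of the EGFR and FGF, kinase and cytoskeleton lists include 8.72%, the share of all peaks.

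The other lists had 1 peak each with the site. It was Brd among 24 peaks of Notch pathway genes (4.17%), pnr among 27 of dorsal-ventral genes (3.70%), en among 9 of segmentation genes, hth among 19 of homeotic genes and their cofactors (5.26%), and crq, a scavenger receptor, among 17 of hemocyte genes (5.88%). The intervals of these 5 lists include 8.72%, the share of all peaks. The lists hold few peaks each, and some genes are in more than 1 list.

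Of 2507 genes with a reproducible peak nearest to them, 282 had a 3-base-spacer peak. Among these 282 genes, 25 had 2 or more such peaks and 6 had 3 or more. Reg-2, a rhythmically expressed gene of the hydrolase class, had 4 of its 9 peaks with the site, the most of any gene. The strongest, 16099 bp from the start, had 626 in the pooled list and 338 and 286 in replicates 1 and 3, and the others had 257, 208 and 147. The first 3 of these 4 peaks carried TTCCAGGAA or its other strand and the weakest TTCCAAGAA or its other strand. The Dpp pathway zinc-finger gene shn had 3 of 9, at 623, 587 and 134. Imp, an RNA-binding protein gene, had 3 of 5 at 380, 339 and 159, the Toll family gene Tollo 3 of 5 at 126 to 238, and CG15283 3 of 5 at 348, 177 and 160. Within each of these 5 genes the peak strongest in the pooled list exceeded the weakest in both replicates, an order that choosing by the pooled signal of the same replicates favours.

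Further strong peaks were near genes of varied function. Ppa, which encodes an F-box protein, had 635 in the pooled list with 362 and 284 in replicates 1 and 3. The small GTPase gene Rac2 had 632, with 349 and 292. dos, an adaptor of receptor tyrosine kinases, had 581, with 321 and 269. FER, a cytoplasmic tyrosine kinase, had 514, with 294 and 225, and Rab8, a GTPase of vesicle traffic, had 493, with 285 and 207. RhoU, whose peak lay 29258 bp into the gene, had 453, with 210 and 240. The peaks near CG2201, Lrch, wake, CG32026 and Hex-A, the gene of a hexokinase, had 494, 476, 456, 452 and 446 in the pooled list. Among the peaks with the full palindrome, melt had 411, E2f1 379 and chic, the profilin gene, 314. Replicate 1 had the higher value in each of these where both are given, except RhoU, and whether the lists share a scale is not stated.

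Few peaks lay right at the window edge. In 17 peaks the outermost base of the nearest site lay 48 to 50 bp from the summit, just inside, and their median pooled signal was 166, the strongest being dos at 581, CG15480 at 283 and rols at 253. In 17 other peaks it lay 51 to 53 bp away, just outside, with a median of 159, the strongest being InR at 358, Loxl1 at 338 and drk at 270.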

How the data were processed

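Stat92E ChIP-seq was measured in 2 biological replicates of whole embryos. Per the file lists deposited with the samples, the authors called peaks on dm6 for each replicate and for both together, and thresholded them by IDR (irreproducible discovery rate). No source used here gives the aligner, the peak caller or the IDR threshold. The deposited signal of each peak has no stated scale. The deposited −log10 q-value took 1 value, 3.62, in all 3603 IDR-thresholded peaks and was not used to rank them. Positions and summits are other deposited columns. The 3603 peaks were identical to the 3603 strongest pooled peaks, and 2 on the mitochondrial chromosome were left out. Each replicate and pooled list held 30000 peaks. Read depth is unknown.

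From these files, both strands of the window reaching 50 bp to either side of each summit (Release 6, RefSeq) were searched with Python 3.11.15, numpy 2.4.6 and pandas 2.3.3, and figures were drawn with matplotlib 3.10.9. Gene names are those of the nearest start site among 13945 protein-coding genes of the Ensembl annotation. Promoter means within 1000 bp of a start site. A replicate value is that of the overlapping replicate peak with the nearest summit. Intervals are exact binomial intervals at 95% (scipy 1.17.1), for counting error only. No test was made, because peaks are not replicates of a condition. The search was tested on simulated sequence and found 245 of 245 planted sites.

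The peaks, gene lists and motifs were chosen with earlier results of these data known. Genes named are the 25 strongest, all of the pathway and target lists, up to 4 per other list, the 10 strongest with the full palindrome, peaks with several sites, the 5 largest rank differences between replicates each way, and those at the window edge. Others were named after their values were seen: genes with 3 or more peaks, further tracheal genes, ed, sala and CG12362. A few list entries had no match in the annotation and were not used here, and 1 peak of those named by this rule is not reported here. Alternatives were the window length, promoter distance, flank distance, peak strength, merged regions, overlap rules and each replicate left out.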

Additional observations from a re-analysis of the deposited data

How the results depend on the processing

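For 8 results, 51 alternative values were computed, of which 35 stayed within the counting error of the reported value, 16 moved beyond it and 0 changed direction. With a window of 51 bp in all the share of peaks with the site was 4.19%, the share of these with the 4-base spacing too 2.65% and the median distance to the summit 10 bp. With a window reaching 100 bp to either side the corresponding values were 13.9%, 12.0% and 35 bp, the ratio to flanking windows was 2.22, the signal ratio to peaks with neither site 1.13, against 1.22 as reported, and the promoter share 45.8%. The windows themselves set the counts and distances. In the 1800 strongest peaks the site share was 11.6%, the ratio to flanking windows 3.45 and the share among the strongest of both replicates 98.1%. That last share was 56.4% with 50% reciprocal overlap and 70.1% with summits within 100 bp. A promoter distance of 500 bp gave a promoter share of 32.5% and one of 2000 bp gave 50%.

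With replicate 1 or replicate 3 left out, the strongest peaks of the other replicate gave a site share of 8.66% to 8.67%, a ratio to flanking windows of 2.58 to 2.75, a signal ratio of 1.19 in either case, a promoter share of 41.3% to 41.8%, a full palindrome in 13.1% to 13.8%, the 4-base spacing too in 5.79% to 7.69% and a median distance of 19 to 21 bp. The share in both replicates has no such value. No paired analysis was possible because there was 1 group. Read depth is unknown, and 2 replicates give no estimate of the spread between embryos for any share.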
